A study of Mus musculus with 6 samples.

Results

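The genes described here are the neighbours of *Ptprz1* on mouse chromosome 6, that is, all genes of the deposited count table that lie within 20 Mb of *Ptprz1* on either side. *Ptprz1*, which encodes a receptor-type protein tyrosine phosphatase, lies on the plus strand at chr6:22875502-23052916 in the coordinates of the table. The window holds 264 of the table's 21999 genes. Leaving out *Ptprz1*, *Ptn*, *Mest*, *Cav1*, *Cald1*, *Thsd7a*, *Fam180a* and symbols that begin with Col, Wnt, Nduf or Chst removed 14 of them, and the other 250 genes are the members. The rule goes by position and symbol and reads no expression value, but it was written with earlier results of these data known. Of the 250, 81 lie at lower coordinates than *Ptprz1* and 169 at higher coordinates, and 182 are protein coding, 23 are pseudogenes, 22 are long intergenic RNAs (lincRNAs), 16 are antisense transcripts, 5 are processed transcripts and 2 are listed as immunoglobulin genes. A window of this size has an edge: the member farthest out was *Fam115a* at 19.6 Mb and the first gene beyond the limit was *Arhgef5* at 20.2 Mb, while toward the chromosome's start the table held no gene beyond the limit.

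RNA was sequenced from lung microvascular endothelial cells of untreated *Ptprz1*+/+ and *Ptprz1*-/- mice on the mixed SV129/B6 background, with 3 libraries per genotype from 3 independent isolations. The mice were 3 to 8 weeks old, and 2 to 5 of them went into each isolation, so a library is a pool and not an animal. Cells grown from the digested lungs in medium with endothelial growth supplement were separated with CD31 magnetic beads once the plate was full. The libraries held 14496881 to 17709663 counted reads.

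Genes that sit close together on a chromosome are inherited together, so the stretch around a targeted gene is passed on with the targeted allele when a mutant line is bred. Where the stem cells that were targeted and the mice used for breeding come from different strains, neighbours of the targeted gene may carry different alleles in mutant and wild-type animals. Neighbours can also share regulatory DNA with the targeted gene. The count table gives levels and not alleles, so which strain the alleles of the members came from was not tested.

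*Ptprz1* itself did not separate the labels. Its reads numbered 197, 1837 and 508 in *Ptprz1*+/+ replicates 1 to 3 and 1138, 1320 and 895 in *Ptprz1*-/- replicates 1 to 3, which is 48.3 ± 46.7 against 73.4 ± 15.9 CPM (counts scaled to a common library size with edgeR's TMM factors, mean ± SD, n = 3). The log2 fold change was 0.60 with a standard error of 0.70 (edgeR quasi-likelihood test, unadjusted p = 0.42). The 2 groups overlapped and the lowest value belonged to a *Ptprz1*+/+ library. Every direction given here therefore rests on the labels, and "lower" or "higher" means in the libraries labelled *Ptprz1*-/-. Of the marker lists, 8 fibroblast genes summed to 11590 to 27857 CPM per library and 10 endothelial genes to 76.6 to 660 CPM, whereas 5 epithelial genes stayed below 1 CPM in all 6 libraries, and of 5 leukocyte markers the 3 with a row in the table summed to 4.12 to 9.89 CPM. The labelled cell type is thus not the one whose markers were most abundant. In such bulk samples fewer cells of a type and less RNA per cell cannot be told apart.

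The start-site regions of the 4 members with the lowest p-values are shown because these are the members that passed an unadjusted p of 0.05 in the edgeR quasi-likelihood test, from which most fold changes below are taken. Each run is the RefSeq sequence of build GRCm38.p6 from 250 bases before to 50 bases after a start site of the gene, 5′ to 3′ on the minus strand, on which all 4 genes lie. The first start site listed for a gene was taken, and any others it may have are not described. Capitals mark the GC box GGGCGG or its reverse complement CCGCCC and the CCAAT box CCAAT or its reverse complement ATTGG.
*Cttnbp2*, chr6:18514820-18515119: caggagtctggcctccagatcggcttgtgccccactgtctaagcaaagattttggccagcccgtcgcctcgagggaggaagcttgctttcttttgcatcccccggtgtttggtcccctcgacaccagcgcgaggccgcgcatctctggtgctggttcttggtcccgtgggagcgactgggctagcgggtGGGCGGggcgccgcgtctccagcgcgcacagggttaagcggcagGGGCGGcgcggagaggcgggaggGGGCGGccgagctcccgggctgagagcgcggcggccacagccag
*Impdh1*, chr6:29216315-29216614: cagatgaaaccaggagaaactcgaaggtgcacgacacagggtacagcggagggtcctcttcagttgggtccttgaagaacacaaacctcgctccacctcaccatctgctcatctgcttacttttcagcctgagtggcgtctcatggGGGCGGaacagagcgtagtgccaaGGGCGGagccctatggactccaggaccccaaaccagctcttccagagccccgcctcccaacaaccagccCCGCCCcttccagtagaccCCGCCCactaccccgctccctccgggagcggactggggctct
*Rpa3*, chr6:8259092-8259391: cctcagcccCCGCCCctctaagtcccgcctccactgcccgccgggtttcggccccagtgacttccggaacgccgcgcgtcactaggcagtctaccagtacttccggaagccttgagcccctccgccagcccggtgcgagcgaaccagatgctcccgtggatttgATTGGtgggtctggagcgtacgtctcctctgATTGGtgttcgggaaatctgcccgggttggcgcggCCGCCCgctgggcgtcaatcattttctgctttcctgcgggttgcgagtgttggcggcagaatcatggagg
*Fam115a*, listed by RefSeq as *Tcaf1*, chr6:42710066-42710365: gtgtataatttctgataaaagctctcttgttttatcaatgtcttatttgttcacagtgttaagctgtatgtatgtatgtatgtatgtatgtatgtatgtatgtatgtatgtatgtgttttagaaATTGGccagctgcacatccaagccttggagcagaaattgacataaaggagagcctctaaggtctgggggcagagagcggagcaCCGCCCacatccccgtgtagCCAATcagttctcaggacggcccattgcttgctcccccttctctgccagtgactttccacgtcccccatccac

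The GC box was found 3 times at *Cttnbp2*, 4 times at *Impdh1*, 2 times at *Rpa3* and 1 time at *Fam115a*. The CCAAT box was found 2 times at *Rpa3* and 2 times at *Fam115a*, and the TATA box TATAAA (searched on both strands) in none of the 4. The windows of *Cttnbp2*, *Rpa3* and *Impdh1* were 69.3%, 64.3% and 61.3% G or C with 30, 28 and 14 CpG dinucleotides, and that of *Fam115a* was 45.3% with 5. RefSeq entries were at hand for 188 of the 250 members, with 225 start sites in all. The GC box stood in 54.2% of these 225 windows, in 68.5% of the 149 windows of tested members and in 35.7% of the 32851 windows of all RefSeq entries at hand. For the TATA box the shares were 12.9%, 9.4% and 13.6%, and for the CCAAT box 35.1%, 34.9% and 37.4%. The 32851 windows were not limited to genes of the count table or to tested genes, and the shares over those genes were not computed. The shares of all members and of tested members thus both stand beside an unlike set, and no enrichment near *Ptprz1* can be read from them. No motif searched contains another, and a match describes these letters only, not a bound site.

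Most members were either expressed at an ordinary level or hardly at all. Of the 250, 134 held enough reads for a test and 116 did not. The tested members held 55 to 103069 reads over the 6 libraries with a median of 2203, and the others 1 to 78 with a median of 6. The tested genes included 125 of the 182 protein-coding members but only 4 of 23 pseudogenes, 3 of 22 lincRNAs and 1 of 16 antisense transcripts. The families that were too low are ones that other tissues use: all 4 bitter taste receptor genes (*Tas2r*), both olfactory receptor genes (*Olfr*) and both T-cell receptor beta segments (*Trb*) were among them, with at most 2, 15 and 14 reads per gene over all libraries. Together the members took up 0.691% to 0.802% of the reads of a library, or 6723 to 7993 CPM. The *Ptprz1*+/+ libraries spanned 6723 to 7993 CPM and those labelled *Ptprz1*-/- 7082 to 7838 CPM, so the second range lies inside the first.

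On the scale of reads per gene length (FPKM, counts scaled by gene length and library total), the median tested member stood at 7.36 FPKM beside 7.55 FPKM over all 13609 tested genes. *Calu*, which encodes the calcium-binding protein calumenin of the endoplasmic reticulum, was the most abundant member with a mean of 332 FPKM and a range over the 6 libraries of 239 to 384. Its range did not touch that of any of the next 5. *Gm15487* followed with 154 FPKM (77.0 to 190), *Zyx*, which encodes the focal adhesion protein zyxin, with 149 FPKM (92.9 to 219) and *Atp6v1f*, a subunit of the proton pump V-ATPase, with 149 FPKM (119 to 182). These ranges overlapped throughout. *Mtpn*, which encodes myotrophin, an inhibitor of the actin capping protein, had 95.5 FPKM (76.8 to 110) and *Arf5*, a small GTPase of vesicle traffic, 83.9 FPKM (68.6 to 107), again with overlapping ranges. *Gm15487* is a processed copy of *Atp6v0c* on another chromosome and matches its transcript over 465 bases at 99.8% identity, so its reads cannot be told from those of *Atp6v0c* and its rank is uncertain. In all, 53 tested members had a mean of 10 FPKM or more and 19 a mean under 1 FPKM. All 6 of these abundant genes lay at higher coordinates than *Ptprz1*.

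**Figure D1:**
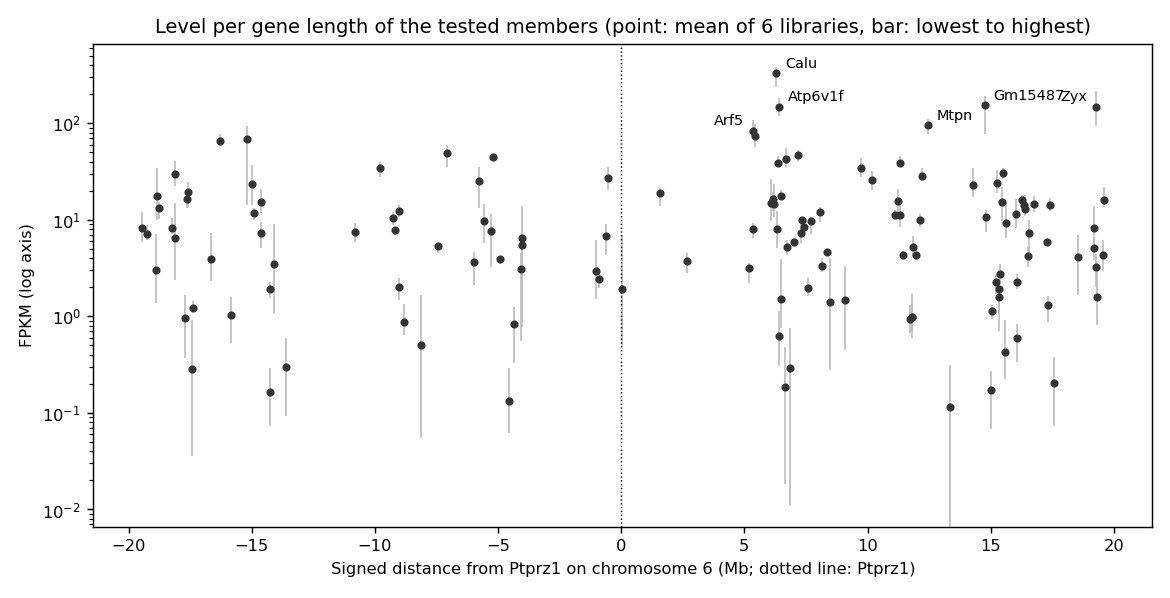
Level of each of the 134 tested members in FPKM (log axis) against its signed distance from *Ptprz1* in Mb, with the mean of the 6 libraries as a point and the lowest to highest library as a bar; for the 1 member with a library at 0 the bar runs to the axis. The 6 most abundant members, from *Calu* at 332 FPKM to *Arf5* at 83.9 FPKM, are named.

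The libraries were made to compare the genotypes, and the first comparison is of each neighbour between them. In edgeR's quasi-likelihood test, fitted on all 13609 tested genes, 0 of the 134 tested members passed a Benjamini-Hochberg adjusted p of 0.05, and the lowest adjusted p among them was 1.00. The background is 0% of all genes. At an unadjusted p under 0.05 there were 4 members, all lower in the libraries labelled *Ptprz1*-/-. That is 2.99% of the tested members beside 2.69% of all tested genes in either direction and 1.56% in the lower direction. DESeq2 also passed 0 members after adjustment, with 30 genes of the whole table past it (0.221%), and had 9 members (6.72%) at an unadjusted p under 0.05 beside 3.64% of all genes, 3 of them higher and 6 lower. Of those 30 genes, 27 lay on other chromosomes and 1 on chromosome 6 outside the window. The remaining ones lie within 20 Mb of *Ptprz1*, among the genes left out by the rule. The 0 thus holds for the members and not for the whole window. limma voom and edgeR's likelihood ratio test passed 0 members after adjustment (all genes 0% and 0.125%) and had 6 and 4 at an unadjusted p under 0.05, with 2.51% and 2.68% of all genes. The 4 of the likelihood ratio test were 2 higher (*Plxna4* and *Ppp1r3a*) and 2 lower (*Cttnbp2* and *Tfpi2*), and there *Impdh1*, *Rpa3* and *Fam115a* had unadjusted p-values of 0.0682, 0.0655 and 0.0858 (edgeR). The direction and the identity of the unadjusted calls thus depended on the test, and *Cttnbp2* is the one member called by all 4 tests. The unadjusted count depended on single libraries, with 10 of 136 tested members (all genes 4.84%) without *Ptprz1*+/+ replicate 1 and 7 of 138 (all genes 3.53%) without *Ptprz1*+/+ replicate 3 in place of 4 of 134. With 13 of 250 members (all genes 2.51%) when no filter on low counts was used, and with DESeq2's 9, it depended on the processing too.

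The fold changes fell on both sides of 0. Of the 134 log2 fold changes, 71 were above 0 (53%, beside 49.1% of all tested genes) and 63 below, with a median of 0.02 beside 0.00 over all genes. The median size without sign was 0.18 for the members and 0.16 for all tested genes. A log2 fold change beyond 1 in either direction was reached by 9 members (6.72%, beside 5.50% of all genes), 3 higher and 6 lower, and 1 of these 9 had an unadjusted p under 0.05 in the edgeR test. Those 9 are among the sparser genes, with a median of 458 reads over all libraries and no mean above 3.51 FPKM. For 86 of the 134 members, or 64.2%, the 95% interval of the log2 fold change lay within 1 on either side of 0, which bounds the difference below a doubling for these genes. The same held for 63.6% of all tested genes. The median member had an interval reaching 0.58 to either side.

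In 7 tested members the 3 values of one group all lay above the 3 of the other, with *Ptprz1*-/- on top in 3 and *Ptprz1*+/+ on top in 4. That is 5.22% of the tested members beside 7.28% of all tested genes, with 3.73% of all genes in the lower direction. With 3 libraries per group an exact permutation test over samples (two-sided) cannot go below p = 0.1. Groups that do not overlap give this smallest value by definition, so it adds nothing to the count of 7. The rest of chromosome 6 gave 32 of 525 tested genes (6.10%) without overlap and 13 (2.48%) at an unadjusted edgeR p under 0.05, and the other chromosomes 7.34% and 2.68% of 12936.

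**Figure D2:**
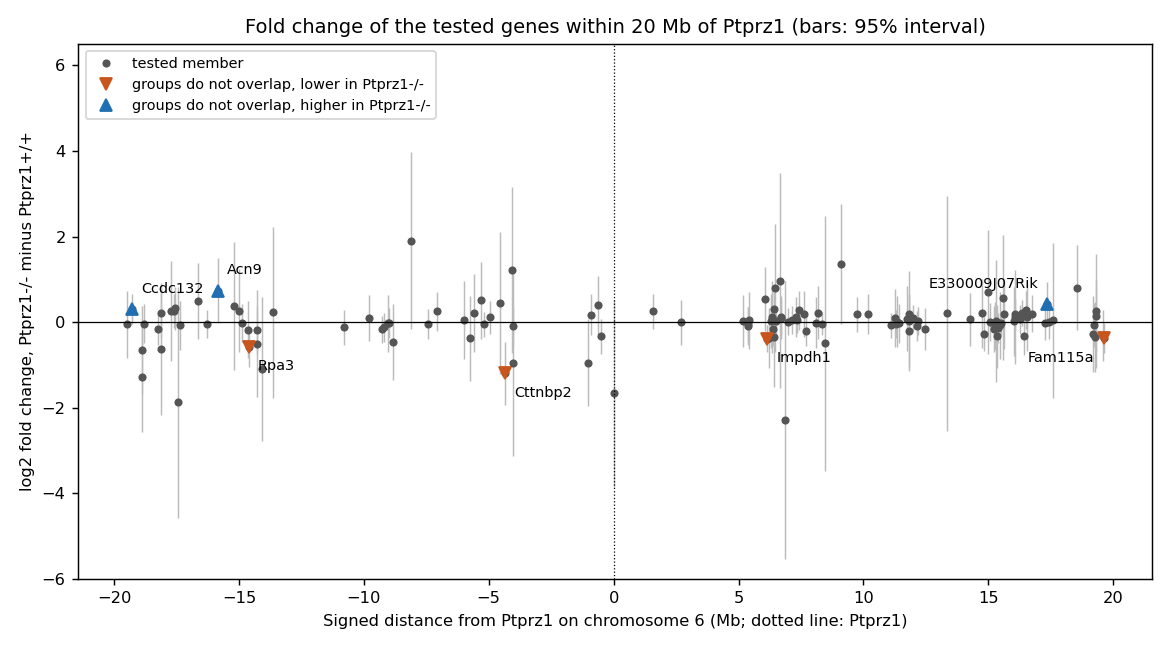
log2 fold change (*Ptprz1*-/- minus *Ptprz1*+/+, edgeR) of each of the 134 tested members against its signed distance from *Ptprz1* in Mb, with the 95% interval as a bar. The 7 members whose groups do not overlap are named, and they stand at distances from 4.36 to 19.6 Mb with none among the 6 tested members within 2 Mb.

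*Cttnbp2*, 4.36 Mb toward lower coordinates (chr6:18366478-18514869), encodes a cortactin-binding protein that links actin regulators with phosphatase complexes and is best known from neurons. It stood at 6.52, 6.21 and 7.70 CPM in *Ptprz1*+/+ replicates 1 to 3 and at 2.85, 2.06 and 3.96 CPM in those labelled *Ptprz1*-/-. The lowest *Ptprz1*+/+ library was well above the highest *Ptprz1*-/- library, so the groups do not overlap. The log2 fold change was -1.20 with a standard error of 0.31 and a 95% interval from -1.94 to -0.46 (edgeR quasi-likelihood test, unadjusted p = 0.00698, adjusted p = 1.00). Leaving out each library in turn moved it between -1.47 and -0.998. The lowest adjusted p over the alternatives was 0.196, from DESeq2, which keeps it on the same side of the threshold. Its GC-rich start region is the one with 3 GC boxes above.

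*Impdh1* (6.15 Mb, chr6:29200434-29216364) encodes an IMP dehydrogenase, the rate-limiting enzyme of guanine nucleotide synthesis. Its values were 51.7, 48.3 and 44.2 CPM against 41.2, 34.2 and 34.5 CPM. All *Ptprz1*+/+ libraries were above all libraries labelled *Ptprz1*-/-. The log2 fold change of -0.39 (SE 0.13) had an unadjusted p of 0.0231 in the edgeR test.

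*Rpa3* (14.6 Mb toward lower coordinates, chr6:8255936-8259173) encodes the smallest subunit of replication protein A, which coats single-stranded DNA. It read 14.5, 12.6 and 10.3 CPM against 8.56, 8.58 and 7.93 CPM. The libraries labelled *Ptprz1*-/- lay close together below the whole *Ptprz1*+/+ range, with a log2 fold change of -0.58 (SE 0.20, edgeR unadjusted p = 0.0245). A copy of *Rpa3*, *Gm6195*, matches it over 361 bases at 94.2% identity but held 2 reads in all.

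*Fam115a* (19.6 Mb, chr6:42668002-42710072), also called *Tcaf1*, encodes a protein that binds TRP ion channels. Its 82.0, 111 and 90.8 CPM in *Ptprz1*+/+ stood above 71.0, 76.2 and 71.9 CPM in *Ptprz1*-/-. *Ptprz1*+/+ replicate 2 was the highest and the groups do not overlap, and the log2 fold change was -0.38 (SE 0.14, edgeR unadjusted p = 0.0383), or -0.24 without *Ptprz1*+/+ replicate 2. Adjusted p-values of *Impdh1*, *Rpa3* and *Fam115a* were 1.00 in the edgeR test.

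The 3 members that did not overlap in the other direction were *Acn9*, *Ccdc132* and *E330009J07Rik*. *Acn9*, an assembly factor of the mitochondrial enzyme succinate dehydrogenase, read 3.81, 2.25 and 4.10 CPM against 6.58, 5.70 and 4.62 CPM. *Ccdc132*, a subunit of a tethering complex for endosome recycling, read 36.0, 31.5 and 34.7 CPM against 41.1, 48.8 and 36.4 CPM. *E330009J07Rik* read 6.04, 7.64 and 8.71 CPM against 10.6, 9.61 and 9.84 CPM. In each of the 3 the gap between the groups was narrow, and the log2 fold changes were 0.73 (SE 0.32), 0.31 (SE 0.15) and 0.42 (SE 0.21). Their unadjusted edgeR p-values of 0.0578, 0.0799 and 0.0873 did not pass 0.05.

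**Figure D3:**
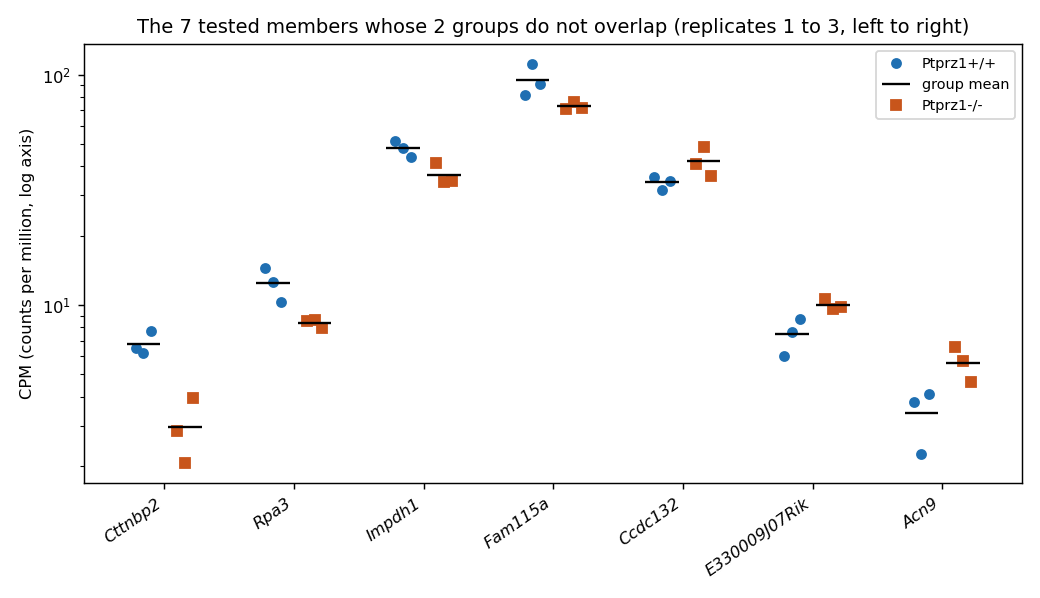
CPM (log axis) in each library of the 7 tested members whose groups do not overlap, with *Ptprz1*+/+ replicates as circles, *Ptprz1*-/- replicates as squares and group means as lines. *Cttnbp2*, *Rpa3*, *Impdh1* and *Fam115a* are lower in *Ptprz1*-/- and *Ccdc132*, *E330009J07Rik* and *Acn9* higher.

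The second comparison is by distance from *Ptprz1*. Of the 15 members within 2 Mb, 6 could be tested, and 0 of them had an unadjusted p under 0.05 by edgeR or groups that do not overlap. Between 2 and 5 Mb, 1 of 7 tested members did so on both counts, and that is *Cttnbp2*. Between 5 and 10 Mb there was again 1 of 45 on both counts (2.22%), *Impdh1*. Between 10 and 20 Mb 2 of 76 passed the unadjusted p (2.63%) and 5 did not overlap (6.58%). Over all tested genes the 2 shares were 2.69% and 7.28%. After adjustment each class had 0. The median size of the log2 fold change was 0.37 within 2 Mb, 0.44 from 2 to 5 Mb, 0.17 from 5 to 10 Mb and 0.19 from 10 to 20 Mb. The median reads over all libraries in these classes were 2289, 1199, 3453 and 1846. The half-widths of the 95% interval were 0.58, 0.74, 0.54 and 0.59. The class from 2 to 5 Mb thus had the largest size, the fewest reads and the widest interval. That from 5 to 10 Mb had the smallest size, the most reads and the narrowest interval. The class within 2 Mb had a larger size than that from 10 to 20 Mb (0.37 and 0.19). It also had more reads (2289 and 1846), with a half-width of 0.58 beside 0.59. A log2 fold change beyond 1 was reached by 3 of 13 tested members within 5 Mb (23.1%) and 6 of 121 farther out (4.96%). Over all tested genes that share was 5.50%. The part of read number and precision in these sizes was not tested. With 6 and 7 tested members in the 2 nearest classes, these medians rest on few genes.

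By side, 21 of the 50 tested members at lower coordinates (42%) and 50 of the 84 at higher coordinates (59.5%) had a log2 fold change above 0. Over all tested genes the share was 49.1%. The median sizes were 0.26 and 0.15, with half-widths of the 95% interval of 0.68 and 0.53. A log2 fold change beyond 1 was reached by 12% of the tested members at lower coordinates and 3.57% of those at higher coordinates. The median reads over all libraries were 2236.5 and 2203. The fold change spread more widely on the side where its intervals were also wider, and the part of precision was not tested.

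*Aass*, which encodes the enzyme that starts lysine breakdown, is the closest tested neighbour and lies on the opposite strand. The end of *Aass*, and not its start, is nearest, 0.019 Mb beyond the end of *Ptprz1*. *Aass* read 4.23, 25.2 and 2.71 CPM in *Ptprz1*+/+ and 3.35, 5.08 and 1.72 CPM in *Ptprz1*-/-. A single library, *Ptprz1*+/+ replicate 2, stood apart from the other five, which overlap. The log2 fold change of -1.67 (SE 0.91, edgeR unadjusted p = 0.112) came to -0.04 without that library. *Ptprz1* itself was also highest in *Ptprz1*+/+ replicate 2, as was the sum of 5 proliferation genes at 653 CPM beside 85.1 to 168 CPM elsewhere, and their part in the *Aass* value was not tested.

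On the other side, *Fam3c* (0.52 Mb), which encodes a secreted cytokine-like protein, read 82.9, 97.4 and 76.8 CPM against 55.6, 70.9 and 77.4 CPM. Its groups overlap by the values of both replicates 3, and the log2 fold change was -0.33 with a 95% interval from -0.74 to 0.07. *Cped1* (0.62 Mb), which encodes a cadherin-like protein, read 34.8, 23.7 and 42.3 CPM against 30.8, 52.7 and 49.2 CPM, with a log2 fold change of 0.40 (interval -0.29 to 1.08). It overlapped because replicate 1 of *Ptprz1*-/- lay among the *Ptprz1*+/+ values. *Ing3* (0.90 Mb), a chromatin reader of a histone acetyltransferase complex, read 8.64, 9.62 and 7.70 against 11.3, 8.92 and 9.12 CPM (log2 fold change 0.18, interval -0.31 to 0.66).

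*Tspan12* (1.02 Mb) encodes a tetraspanin of the Norrin receptor complex that retinal vessels need to grow. It read 5.13, 15.0 and 8.64 CPM against 4.78, 3.98 and 6.14 CPM. The groups overlapped by *Ptprz1*+/+ replicate 1 only, and *Ptprz1*+/+ replicate 2 was the highest. The log2 fold change was -0.95 (SE 0.42, edgeR unadjusted p = 0.063, DESeq2 unadjusted p = 0.0431), and -0.47 without *Ptprz1*+/+ replicate 2.

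*Wasl* (1.56 Mb toward higher coordinates) encodes N-WASP, which starts actin filaments, and read 86.6, 59.1 and 80.8 CPM against 88.4, 97.8 and 84.2 CPM. Its log2 fold change of 0.26 had an interval from -0.16 to 0.67, and 1 *Ptprz1*+/+ library reached into the other group. *Pot1a* (2.69 Mb), a protein of telomere ends, had the smallest change of the 12 nearest, with a log2 fold change of -0.01 (interval -0.53 to 0.52) and 9.53 to 14.3 CPM over all libraries. *Zfp800*, *Gcc1* and *Arf5* (5.19 to 5.37 Mb), a zinc finger gene, a golgin gene and the vesicle GTPase gene, had log2 fold changes of 0.03, -0.10 and -0.05, with no 95% interval reaching beyond 0.63 on either side of 0. *Gcc1* and *Arf5* lie on opposite strands and share 313 exon bases, and as the use of strand in counting was not given in the sources used here, reads there could have gone to either.

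*Lsm8* and *Gm26809* lie side by side 4.02 and 4.03 Mb toward lower coordinates. *Lsm8*, part of the ring that binds a spliceosomal RNA, varied from 15.0 to 22.3 CPM with a log2 fold change of -0.09 (interval -0.55 to 0.36). The lincRNA *Gm26809* read 24.0, 40.0 and 11.9 CPM against 30.0, 2.47 and 6.34 CPM, a 16.2-fold range. Replicate 1 of *Ptprz1*-/- stood with the *Ptprz1*+/+ libraries and the other two below all of them, so the 95% interval of the log2 fold change of -0.97 ran from -3.14 to 1.20, and the fold change itself moved to -2.51 without *Ptprz1*-/- replicate 1 and to -0.47 without *Ptprz1*+/+ replicate 2. Thus a steady gene and one of the most variable members were found a few kilobases apart. *Gm26809* shares 513 bases at 97.1% identity with *Gm12840*, which held 41 reads.

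**Figure D4:**
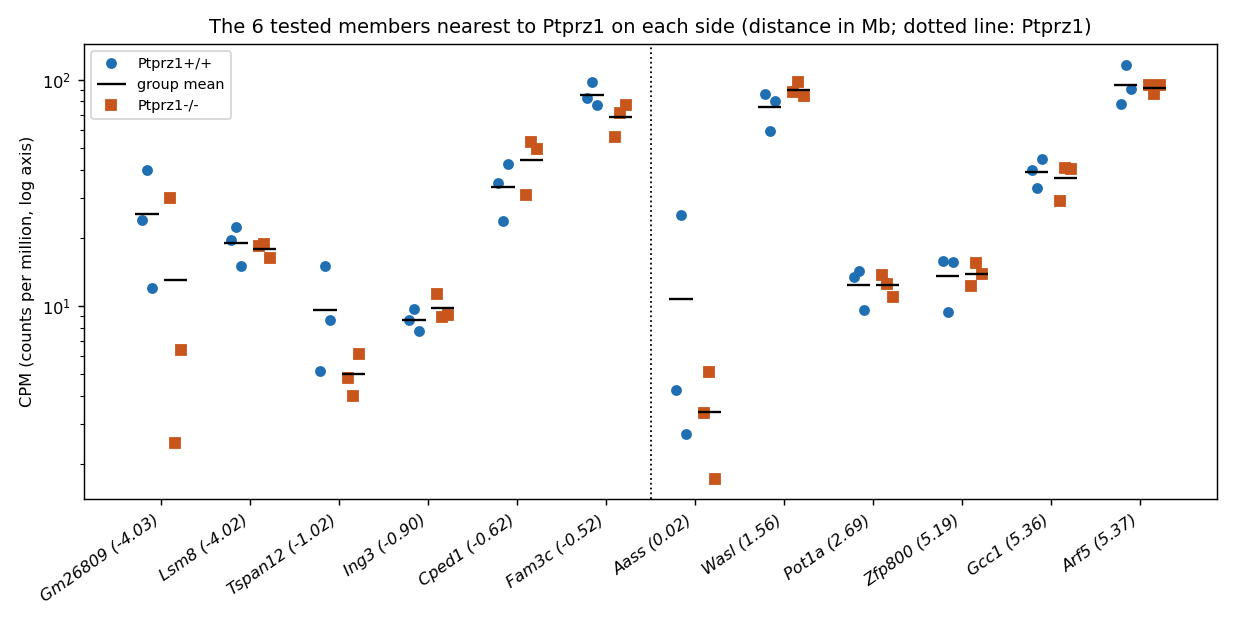
CPM (log axis) in each library of the 6 tested members nearest to *Ptprz1* on either side, in order along the chromosome with the signed distance in Mb beside the name. Groups overlap in all 12, and *Aass* and *Gm26809* spread most between replicates.

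Some members spread widely over the 6 libraries. In 20 tested members the highest library exceeded the lowest by more than 4-fold, in 81 it stayed under 2-fold, and 1 further member had a library with 0 reads. *Podxl*, which encodes podocalyxin, a sialomucin of endothelium and kidney podocytes, read 2.30, 2.09 and 22.7 CPM in *Ptprz1*+/+ and 2.05, 1.58 and 15.5 CPM in *Ptprz1*-/-. It was high in replicate 3 of both genotypes and low in the other four libraries. The summed endothelial markers moved likewise, with 128, 93.3 and 660 CPM against 76.6, 132 and 258 CPM, each highest in replicate 3 of its genotype. Outside replicate 3 most of that sum was *Eng*, which read 101, 59.4 and 142 CPM against 59.6, 115 and 90.5 CPM. *Eng* was thus not highest in replicate 3 of *Ptprz1*-/-, while every other marker of the list was highest in replicate 3 of both genotypes. The part of these markers in the *Podxl* value was not tested. The log2 fold change of *Podxl* was -0.50 (interval -3.49 to 2.49), and leaving out 1 library moved it from -2.32 to 1.53, which turns its sign.

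*Strip2*, a scaffold of the same phosphatase complexes that *Cttnbp2* joins, read 0.0604, 3.96 and 3.85 CPM against 0.0620, 0.343 and 1.19 CPM. *Asb4*, a subunit of a ubiquitin ligase, read 0.121, 1.26 and 3.09 CPM against 0.124, 0.824 and 0.264 CPM. Both were lowest in replicate 1 of both genotypes, at few reads, and both groups overlapped. Their log2 fold changes of -2.29 (SE 1.35) and -1.88 (SE 1.12) are thus large and imprecise. Without *Ptprz1*-/- replicate 3 that of *Strip2* was -3.68, and that of *Asb4* was -0.79 without *Ptprz1*+/+ replicate 3 and -2.90 without *Ptprz1*-/- replicate 2. Replicate 1 of each genotype was also where summed smooth muscle and pericyte markers were highest, at 3637 and 3970 CPM beside 367 to 1179 CPM in the others. *Acta2*, *Tagln*, *Myh11* and *Des* were highest in these libraries, and *Acta2* and *Tagln* made up most of the sum. *Rgs5* of the same list went the other way and was lowest there, at 1.63 and 0.310 CPM. *Cspg4* was highest of its genotype in *Ptprz1*+/+ replicate 1 (12.8 CPM) and lowest in *Ptprz1*-/- replicate 1 (7.26 CPM). The part of these markers was not tested.

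*Ppp1r3a*, which brings protein phosphatase 1 to glycogen in muscle, read 1.69, 0.385 and 2.46 CPM against 11.4, 3.57 and 2.05 CPM. *Ptprz1*-/- replicate 1 was the highest and *Ptprz1*-/- replicate 3 lay within the *Ptprz1*+/+ range. Without *Ptprz1*-/- replicate 1 its log2 fold change of 1.91 (SE 0.86, edgeR unadjusted p = 0.0648) was 0.89. That library also held the highest sum of 5 mesothelial markers, 1088 CPM beside 52.3 to 237 CPM in the others, with none of the 5 at 0 in any library. The part of these markers in the *Ppp1r3a* value, and in those of *Rbm28*, *Slc25a13* and *Irf5*, which were also highest in that library, was not tested.

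**Figure D5:**
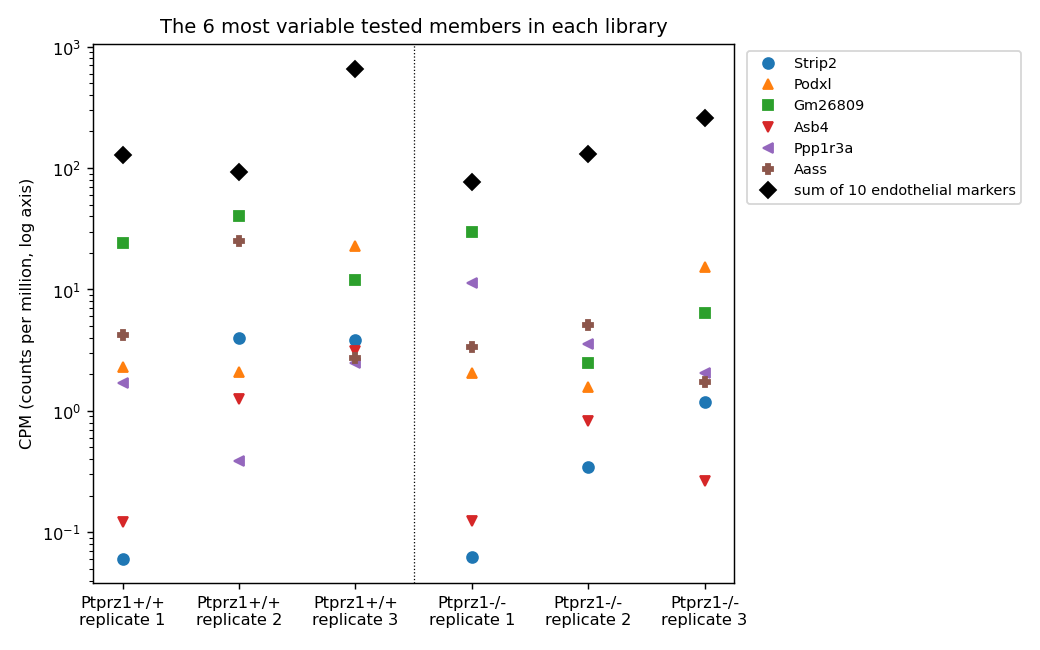
CPM (log axis) of the 6 tested members with the largest spread over the 6 libraries, beside the summed CPM of 10 endothelial markers (diamonds). *Podxl* and the marker sum are each highest in replicate 3 of both genotypes, while *Strip2* and *Asb4* are lowest in replicate 1 of both.

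Read by role, each of 7 lists of neighbours held 0 or 1 gene with an unadjusted edgeR p under 0.05, and the small lists allow only counts beside the 2.69% and 7.28% of all genes given above. In what follows a passed test means an unadjusted edgeR p under 0.05, since 0 members passed after adjustment. Of 20 receptors, ligands and signal transducers 14 were tested and 0 passed. Of their 14 log2 fold changes 9 were above 0 (64.3%, beside 49.1% of all tested genes), with a median of 0.15. The lowest p-values in this list belonged to *Tfpi2* and *Plxna4*. *Tfpi2*, a protease inhibitor of the extracellular matrix, read 6.04, 10.6 and 2.84 CPM against 2.17, 3.84 and 1.98 CPM. Its groups overlap, and the log2 fold change was -1.28 (SE 0.54, edgeR unadjusted p = 0.0512, DESeq2 unadjusted p = 0.0271), or -0.74 without *Ptprz1*+/+ replicate 2. *Plxna4*, a co-receptor for semaphorins that guide axons, read 11.9, 5.61 and 14.3 CPM against 41.1, 9.47 and 30.8 CPM. Replicates 1 and 3 of *Ptprz1*-/- were the highest of all and replicate 2 lay within the *Ptprz1*+/+ range (log2 fold change 1.36, SE 0.58, edgeR unadjusted p = 0.0564, DESeq2 unadjusted p = 0.0224).

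Of 17 cytoskeleton, adhesion and caveola genes 12 were tested and 1 passed, *Cttnbp2*, with a median log2 fold change of -0.04. *Flnc*, the muscle filamin that crosslinks actin, had the next lowest p there and read 431, 321 and 385 CPM against 353, 348 and 308 CPM (log2 fold change -0.17, interval -0.57 to 0.22). *Zyx* and *Mtpn*, with log2 fold changes of 0.14 and -0.15, had intervals from -0.71 to 0.99 and from -0.64 to 0.33. Of the 12 tested genes of this list, 7 had an interval within 1 on either side of 0.

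Of 19 transcription factors and nuclear proteins 18 were tested and 0 passed, with a median log2 fold change of 0.02 and a middle range from -0.04 to 0.09. This was the tightest of the larger lists. Its 2 lowest p-values were those of *Rbm28*, a nucleolar RNA-binding protein, at 69.0, 42.8 and 50.2 against 114, 61.2 and 59.7 CPM, and of *Trim24*, a chromatin reader and transcription cofactor, at 42.9, 46.0 and 53.3 against 42.6, 31.7 and 43.0 CPM. *Ptprz1*-/- replicate 1 set *Rbm28* apart (log2 fold change 0.53, interval -0.22 to 1.28, and 0.17 without that library) and *Ptprz1*-/- replicate 2 set *Trim24* apart (-0.28, interval -0.68 to 0.12).

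Of 21 metabolic enzymes 16 were tested and 1 passed, *Impdh1*, with a median of -0.03. All 5 tested channels and transporters of 9 had a log2 fold change above 0, beside 49.1% of all tested genes. Their median was 0.44, and 0 of them passed. *Atp6v1f* read 124, 98.3 and 99.4 CPM against 142, 144 and 112 CPM and *Slc25a13*, the mitochondrial aspartate and glutamate carrier citrin, 10.9, 11.7 and 7.45 CPM against 21.9, 10.4 and 10.1 CPM. Both pairs of groups overlap, and their log2 fold changes were 0.31 (SE 0.16) and 0.50 (SE 0.37). The second came to 0.04 without *Ptprz1*-/- replicate 1, which was higher than the other five libraries.

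All 16 genes on the list of secretory, ubiquitin and mitochondrial genes were tested and 0 passed. Their median log2 fold change was 0.03, and 1 of them, *Ccdc132*, did not overlap between groups. *Calu* read 1263, 751 and 1192 CPM against 945, 1256 and 1061 CPM with a log2 fold change of 0.02 (interval -0.60 to 0.65). All 5 innate immune and interferon-responsive genes were tested and 0 passed, with a median of 0.02. *Zc3hav1*, the zinc finger antiviral protein, read 166, 91.7 and 115 CPM against 124, 125 and 101 CPM, and *Irf5*, an interferon regulatory factor, 3.20, 1.92 and 2.33 CPM against 8.50, 1.78 and 2.64 CPM. *Irf5* was high in *Ptprz1*-/- replicate 1 alone, and without that library its log2 fold change of 0.79 was -0.16. *Irf5* also shares 411 exon bases with *Tnpo3* on the opposite strand, which held 7320 reads against its 328, and reads there cannot be told apart without strand.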

How the data were processed

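Reads per gene were taken from the table the authors deposited, which holds unnormalized counts for 21999 genes in 6 libraries. The deposited FPKM values, which the authors derived from these counts with gene length and library total, were used only to compare levels between genes. The submitters' processing notes name STAR, TopHat, HTSeq, DESeq2 and edgeR and the builds GRCm38 and mm10, with no version given in the sources used here, and whether counting used strand was not given either. Columns with the authors' own comparison (mean signal per genotype, log2 fold change, p-value and adjusted p-value) and the lists of called genes were not used.

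Counts were filtered with filterByExpr, scaled by TMM and tested with the quasi-likelihood test of edgeR 4.0.16 in R 4.3.3 on genotype over all genes, with Benjamini-Hochberg adjustment over the 13609 genes tested. This left 116 of 250 members untested. Alternatives used DESeq2 1.42.0, limma 3.58.1 (voom), upper-quartile scaling, no filter, at least 10 counts in every library, a replicate block, windows of 10 and 5 Mb, the left-out genes kept in, and each library left out in turn. The fits were tested on simulated data. No pair of libraries was identical. p-values measure the spread between 3 isolations per genotype, and counts of 0 or of few reads carry counting error besides.

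The members, the 7 role lists, the marker lists and the naming rule were chosen with earlier results of these data known. Members are named if they are among the 12 with the lowest p, the 6 nearest on each side, the 6 most variable in log2 CPM (prior count 2), the 6 highest in mean FPKM or the 2 of lowest p in a role list, or have groups that do not overlap and an unadjusted p under 0.05. *Arhgef5*, the taste, olfactory and T-cell receptor families and the copies and overlapping genes are named outside this rule. Shared exons and copies were read from GENCODE M21, in which 246 of 250 members were found at their file position, with minimap2 2.31. Promoters came from RefSeq GRCm38.p6.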

Additional observations from a re-analysis of the deposited data

How the results depend on the processing

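In every alternative run, 0 members passed an adjusted p of 0.05. The number at an unadjusted p under 0.05, 4 in the test reported, was 9 with DESeq2 (6.72%, beside 3.64% of all genes). It was 13 with no filter on low counts (5.2%, beside 2.51%). When each library was left out in turn it was 4 to 10, or 2.92% to 7.35% of tested members. The share of all genes in those runs moved too, from 2.23% to 4.84%. In narrower windows, which hold fewer genes, it was 2 of 58 within 10 Mb (3.45%) and 1 of 13 within 5 Mb (7.69%), beside 2.69% of all genes. Members whose groups do not overlap numbered 2 and 1 there in place of 7, the same shares, beside 7.28% of all genes. With the left-out genes kept in, 6 of 147 tested genes (4.08%), 1 higher and 5 lower, had an unadjusted edgeR p under 0.05. In that run 9 (6.12%) did not overlap. The median log2 fold change of the members ran from -0.0389 to 0.0360 when each library was left out.

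The replicate numbers were checked as pairs: deviations from the group means correlated across genes at 0.446, -0.0607 and 0.523 for replicates 1, 2 and 3, so not every pair passed 0.1 and the numbers were not taken to pair the libraries. With the replicate block, 11 members (3 higher, 8 lower; 8.21%) had an unadjusted p under 0.05 beside 5.07% of all genes, and 0 passed after adjustment. Not every sample correlated best with its own number.

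Of 36 named members, 25 kept the sign of their fold change in all alternatives. *Pot1a*, at -0.01, was 0.00563 with no filter, 0.00905 with the replicate block and 0.00368 with limma voom. Leaving out each library gave ranges across 0 for *Pot1a* (-0.16 to 0.11), *Gm15487* (-0.0885 to 0.39), *Zc3hav1* (-0.27 to 0.18), *Lsm8* (-0.24 to 0.0411), *Zfp800* (-0.19 to 0.15), *Arf5* (-0.17 to 0.12), *Calu* (-0.18 to 0.17), *Zyx* (-0.14 to 0.43), *Gcc1* (-0.20 to 0.0515), *Podxl* (-2.32 to 1.53) and *Irf5* (-0.16 to 1.16). The cause of these moves was not tested. For members with few reads, and for some members with many, the 95% intervals span more than a doubling, so smaller differences could not be detected there.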
